A study of Mus musculus with 3 samples.

Results

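Galectins are lectins that bind beta-galactosides, and the 8 galectin genes of the mouse described here, Lgals1, Lgals2, Lgals3, Lgals4, Lgals7, Lgals8, Lgals9 and Lgals12, were taken by symbol from a table of 22609 gene symbols. They were chosen as a gene family, with earlier results of these data known. Messenger RNA had been sequenced in 3 sorted epithelial populations of C57BL/6 mice with 1 library each, and no treatment or engineered allele is labelled for any of them. Cortical thymic epithelial cells (cTEC) and medullary thymic epithelial cells (mTEC) came from thymi pooled over 14 mice, each 7 days old, sorted as CD45-negative and EpCAM-positive and then split by the Ly51 antigen and the lectin UEA1. Skin epithelial cells (skinEC) came from the epidermis of 7 pooled newborn mice, sorted as EpCAM-positive and CD11c-negative. Tissue, age and sorting scheme therefore change together between thymus and skin and cannot be told apart. With 1 library per population there is no spread between replicates and no test, and every difference below is a difference between libraries.

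Each galectin carries at least 1 carbohydrate recognition domain, the fold that holds the sugar. Lgals1, Lgals2 and Lgals7 encode prototype galectins with a single domain, which can pair up, Lgals3 encodes the chimera galectin, whose domain follows a long flexible tail, and Lgals4, Lgals8, Lgals9 and Lgals12 encode tandem repeat galectins, with a pair of different domains on 1 chain. Galectins are made in the cytosol and leave the cell without a signal peptide. Outside the cell they crosslink glycoproteins, on T cells among others, where galectin-1 and galectin-9 are known to induce cell death, and inside the cell they mark damaged vesicles and take part in apoptosis control.

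Levels are in RPKM, which divides reads by the length of the gene model and by the mapped reads of the library and so allows levels of different genes to be compared per length. From the steps of low values the depth was estimated at 56600000 reads (cTEC), 55500000 reads (mTEC) and 55900000 reads (skinEC). On a gene of 1 kb, 3 reads are then worth 0.0530, 0.0540 and 0.0537 RPKM. The skinEC estimate is the least certain, with whole reads in 5 of 11 low genes against 27 of 40 in cTEC and 288 of 365 in mTEC. The labels were checked on marker genes. The 6 cortical markers summed to 8859 RPKM in cTEC, 328 in mTEC and 68.6 in skinEC, the 6 medullary markers to 11.4, 1860.4 and 2.26 RPKM, and the 6 basal keratinocyte markers to 255, 888 and 32170.4 RPKM, so each population led in its own markers. No defining marker of a population was listed at 0 in that population. Ratios are given as log2((RPKM + 1) / (RPKM + 1)), which understates differences of low genes, and a gene is counted as higher or lower from 4-fold on that scale, over the 16869 genes whose highest level was not under 1 RPKM. All 8 galectins are among them.

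The promoters of the leading galectin of cTEC (Lgals9) and of the galectins that led in skinEC (Lgals7 and Lgals3) are shown to give the sequence in front of the genes whose levels set the libraries apart. They are the 250 bases before the RefSeq start on GRCm38.p6, a later build than that named for the study, at chr11:78984925-78985174 (minus strand) for Lgals9, chr7:28864136-28864385 (plus strand) for Lgals7 and chr14:47373610-47373859 (plus strand) for Lgals3, 5′ to 3′ on the gene's strand. Capitals mark matches to the motifs searched below.
Lgals9: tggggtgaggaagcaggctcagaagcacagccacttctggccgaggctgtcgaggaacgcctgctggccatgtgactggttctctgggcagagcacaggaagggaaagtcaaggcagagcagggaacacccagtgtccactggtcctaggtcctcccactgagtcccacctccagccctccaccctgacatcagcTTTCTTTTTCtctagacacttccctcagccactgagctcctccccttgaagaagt
Lgals7: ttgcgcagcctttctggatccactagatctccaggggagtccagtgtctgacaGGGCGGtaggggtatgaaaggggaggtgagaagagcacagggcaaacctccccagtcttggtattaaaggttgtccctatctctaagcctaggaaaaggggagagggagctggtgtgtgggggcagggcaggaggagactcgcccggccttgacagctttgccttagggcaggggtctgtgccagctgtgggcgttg
Lgals3: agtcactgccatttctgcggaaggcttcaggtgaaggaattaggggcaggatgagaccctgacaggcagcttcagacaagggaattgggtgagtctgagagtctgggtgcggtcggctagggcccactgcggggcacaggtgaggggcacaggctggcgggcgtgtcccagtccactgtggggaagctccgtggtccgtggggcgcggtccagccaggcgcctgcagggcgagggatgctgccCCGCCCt

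The 4 motifs were searched on both strands, the TATA box TATAAA, the GC box GGGCGG, the AP-1 motif TGANTCA and an interferon response motif made of GAAA, any 2 letters and GAAA, none of whose matches overlapped another. RefSeq promoters were matched for 6 of the 8 galectins, all but Lgals1 and Lgals12. Lgals9 held 1 match to the interferon response motif, on the opposite strand and beginning 55 bases before the start, and 2.98% of 32851 promoters of that length held this motif. Lgals7 and Lgals3 each held 1 match to GGGCGG, which 32.7% of all promoters held. TATAAA was found in 12.4% of all promoters and TGANTCA in 6.75%, and in none of these 6. Such matches describe letters and are no evidence of binding.

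The family divided into 3 patterns. Lgals9, Lgals1 and Lgals8 had their highest level in cTEC, Lgals2, Lgals4 and Lgals12 in mTEC, and Lgals7 and Lgals3 in skinEC. All 8 galectins reached 10 RPKM in mTEC, while 3 did so in cTEC and 5 in skinEC. At 100 RPKM or more there was 1 in cTEC (Lgals9), 1 in mTEC (Lgals9) and 3 in skinEC (Lgals7, Lgals3 and Lgals9). The shares of all genes at these levels were not computed, so these counts are not read as a trait of the family.

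**Figure D1:**
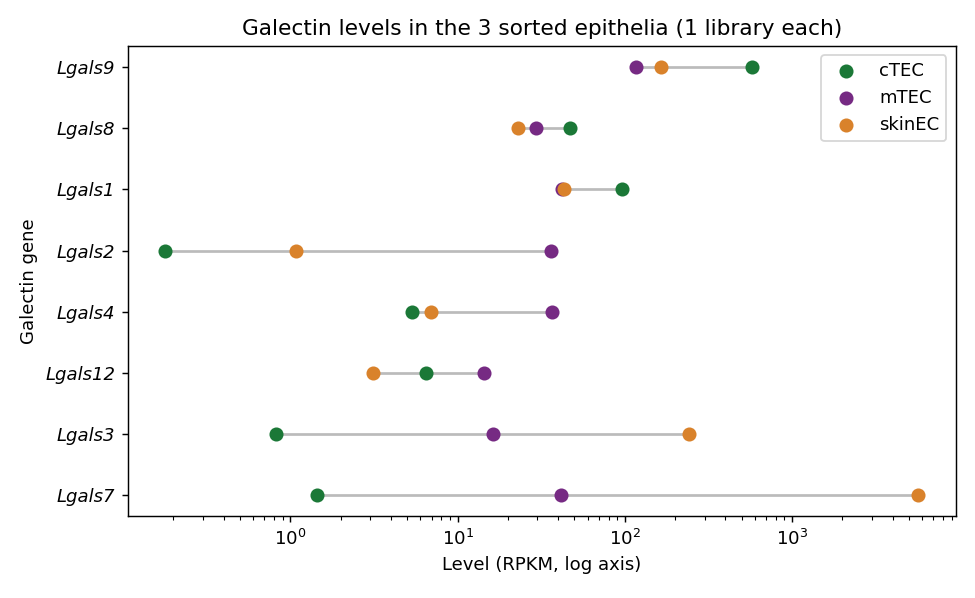
Level of each galectin gene (rows) in RPKM on a log axis, 1 point per library, with a grey line from the lowest to the highest library. Lgals2, Lgals3 and Lgals7 span the widest ranges, with their lowest point in cTEC, while the 3 points of Lgals8 lie between 23.1 and 46.9 RPKM.

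Lgals9 (Entrez 16859, chromosome 11) encodes galectin-9, a tandem repeat galectin best known as a ligand that acts on T cells. It was at 580 (cTEC), 117 (mTEC) and 164 RPKM (skinEC). Lgals9 was the most abundant galectin of both thymic libraries and stood at place 65 of 16869 genes in cTEC, at place 558 in mTEC and at place 505 in skinEC. The cTEC level was 3.53-fold that of skinEC, the next library, and 4.94-fold that of mTEC. The log2 ratio of Lgals9 was 2.29 for cTEC over mTEC, 1.81 for cTEC over skinEC and -0.48 for mTEC over skinEC. Only the first of these 3 ratios passed 4-fold, with 308 genes further toward cTEC. On the TPM scale Lgals9 also passed it against skinEC, with a log2 ratio of 2.18.

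Lgals1 (Entrez 16852, chromosome 15) encodes galectin-1, a prototype galectin known to induce death of activated T cells and thymocytes. Its level was 96.7 (cTEC), 42.0 (mTEC) and 43.3 RPKM (skinEC). It was the second galectin of both thymic libraries, at 13.1% of the galectin sum in cTEC and 12.6% in mTEC, where Lgals7 was close behind at 12.4%. The log2 ratio was 1.18 for cTEC over mTEC and 1.14 for cTEC over skinEC, both under 4-fold. The mTEC and skinEC levels of Lgals1 differed by 1.03-fold, and their order flipped with scaling (log2 ratio -0.04 as deposited, 0.28 on the TPM scale and 0.31 with median-ratio scaling). Fibroblasts and other mesenchymal cells are known to make much galectin-1. The 9 fibroblast markers summed to 70.7 (cTEC), 295 (mTEC) and 48.8 RPKM (skinEC), with none listed at 0. Their sum was highest in mTEC and Lgals1 in cTEC. The part of fibroblast RNA in the levels of Lgals1 was not tested.

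Lgals8 (Entrez 56048, chromosome 13) encodes galectin-8, a tandem repeat galectin that marks damaged vesicles for autophagy in human cells. It was the most even member, at 46.9 (cTEC), 29.5 (mTEC) and 23.1 RPKM (skinEC). Its highest level was 2.03-fold its lowest, and none of its 3 log2 ratios (0.65, 0.99 and 0.34) came near 4-fold.

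Lgals2 (Entrez 107753, chromosome 15) and Lgals4 (Entrez 16855, chromosome 7) encode galectins known from the epithelium of the gut. Lgals2 was at 0.179 (cTEC), 36.2 (mTEC) and 1.09 RPKM (skinEC). With the single transcript of 592 bases in GENCODE M21, these levels correspond to about 6 reads in cTEC, 1191 in mTEC and 36 in skinEC. The mTEC level of Lgals2 was 202-fold that of cTEC and 33.3-fold that of skinEC, with log2 ratios of -4.98 for cTEC over mTEC and 4.16 for mTEC over skinEC. Between cTEC and skinEC the log2 ratio was -0.82, and -2.09 with a pseudocount of 0.1 RPKM, where it passed 4-fold on these few reads.

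Lgals4 was at 5.37 (cTEC), 36.6 (mTEC) and 6.92 RPKM (skinEC). Its mTEC level was 6.83-fold that of cTEC and 5.29-fold that of skinEC, with log2 ratios of -2.56 for cTEC over mTEC and 2.25 for mTEC over skinEC. A row for Lgals6, a near copy of Lgals4, gave 6.10, 43.1 and 7.83 RPKM in the same order. Lgals6 over Lgals4 was nearly constant, at 1.14, 1.18 and 1.13. Whether these rows hold separate reads or share the same reads is therefore uncertain. Their sum, which counts reads again if the rows share them, was 11.5 (cTEC), 79.7 (mTEC) and 14.8 RPKM (skinEC). It keeps mTEC highest. Genes of the intestinal epithelium other than Lgals4 were also highest in mTEC. The 9 such markers summed to 27.5 (cTEC), 1376 (mTEC) and 0.256 RPKM (skinEC). In mTEC 9 of 9 reached 1 RPKM, while 2 did in cTEC and 0 in skinEC. The shares of all genes at 1 RPKM were not computed, so these counts are not read as a trait of gut genes. Between cTEC and skinEC, Lgals4 differed little (log2 ratio -0.32, and -0.004 on the TPM scale). Lgals2 rested on about 6 reads in cTEC, so neither gene is compared with the marker sum there. Most of the sum in both thymic libraries was Reg3g, the gene of an antibacterial lectin of the gut, at 25.02 (cTEC), 1091 (mTEC) and 0.139 RPKM (skinEC). The gut transcription factor gene Cdx1 was at 0.283, 149 and 0.0614 RPKM. Fabp2 was listed at 0 in cTEC, and Cdx2, Fabp1, Fabp2, Cdhr5 and Sis in skinEC. The part of such cells or of single mTEC with gut genes in the levels of Lgals2 and Lgals4 was not tested, and in a bulk library fewer cells of a type and less RNA per cell cannot be told apart.

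Lgals12 (Entrez 56072, chromosome 19) encodes galectin-12, known from adipocytes. It was the least abundant galectin of mTEC, although mTEC had its highest level, with 6.46 (cTEC), 14.3 (mTEC) and 3.13 RPKM (skinEC). The highest level of Lgals12 was 4.58-fold the lowest. On the log2(RPKM + 1) scale none of its ratios passed 4-fold (-1.04 for cTEC over mTEC, 0.86 for cTEC over skinEC and 1.89 for mTEC over skinEC). The last passed it on the TPM scale (2.32), with median-ratio scaling (2.20) and with a pseudocount of 0.1 RPKM (2.16). Adipocyte and sebocyte markers, 11 in all, summed to 4.35 (cTEC), 86.8 (mTEC) and 124 RPKM (skinEC). Like Lgals12, Adipoq, the adipocyte hormone gene, was highest in mTEC, at 8.38 RPKM, and the other two listed it at 0. Cidec (5.54 RPKM in mTEC, 0.0841 RPKM in skinEC) and Scd3 (2.72 and 0.438 RPKM) were highest in mTEC too. So were Cfd, Plin1 and Lep, all below 1 RPKM in mTEC. The rest of the list was highest in skinEC. These genes were Cidea (4.51 RPKM in mTEC, 25.7 RPKM in skinEC), Pparg (4.15 and 22.3 RPKM), Elovl3 (1.59 and 8.43 RPKM), Scd1 and Awat2. Cfd, Plin1, Cidec and Lep were also listed at 0 in cTEC. The part of these markers' cells in the level of Lgals12 was not tested.

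Lgals7 (Entrez 16858, chromosome 7) encodes galectin-7, a prototype galectin of stratified epithelia. It was at 5661 (skinEC), 41.5 (mTEC) and 1.45 RPKM (cTEC). In skinEC Lgals7 was the third most abundant of 16869 genes, while in cTEC it was at place 12088. The skinEC level was 137-fold that of mTEC and 3904-fold that of cTEC, and the mTEC level was 28.6-fold that of cTEC. No gene had a larger ratio of skinEC over cTEC than Lgals7 (log2 ratio -11.17 for cTEC over skinEC), and 2 genes had a larger ratio of skinEC over mTEC (-7.06 for mTEC over skinEC).

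The summed suprabasal and the summed basal keratinocyte markers both had the same order of libraries as Lgals7. The 6 basal markers summed to 255 (cTEC), 888 (mTEC) and 32170.4 RPKM (skinEC). The 9 measured suprabasal markers summed to 14.8 (cTEC), 453 (mTEC) and 5571 RPKM (skinEC), with none listed at 0. Single markers ranged from the cornified envelope gene Lor (38.0 RPKM in mTEC, 30.3 RPKM in skinEC) to the keratin gene Krt1 (25.6 RPKM in mTEC, 1940.0 RPKM in skinEC). Their part in the level of Lgals7 was not tested.

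Lgals3 (Entrez 16854, chromosome 14) encodes galectin-3, the chimera galectin, first known as the macrophage antigen Mac-2 and also made by keratinocytes. It was at 242 (skinEC), 16.4 (mTEC) and 0.825 RPKM (cTEC). The skinEC level was 14.8-fold that of mTEC and 293-fold that of cTEC, and the mTEC level was 19.8-fold that of cTEC. The log2 ratio was -3.25 for cTEC over mTEC, -7.06 for cTEC over skinEC and -3.81 for mTEC over skinEC, so all 3 comparisons passed 4-fold, and 25 genes had a larger ratio of skinEC over cTEC. With a pseudocount of 5 RPKM the first fell just under it (-1.87). Myeloid and dendritic cell markers separated the thymic libraries in the same direction as Lgals3. The 12 markers summed to 8.18 (cTEC), 841 (mTEC) and 9.41 RPKM (skinEC). In mTEC most of this sum came from Laptm5 (2.41 RPKM in cTEC, 460 in mTEC and 1.52 in skinEC) and the lysozyme gene Lyz2 (0.685, 283 and 0.0847 RPKM), and Fcgr3 was listed at 0 in cTEC. In skinEC these markers were low while Lgals3 was highest. The suprabasal keratinocyte marker sums (14.8, 453 and 5571 RPKM in cTEC, mTEC and skinEC) had the same order of libraries as Lgals3. The basal keratinocyte marker sums (255, 888 and 32170.4 RPKM) had that order too. Both thymic populations were sorted as CD45-negative, a gate meant to exclude myeloid cells. Ptprc, the gene of CD45, was at 1.07 (cTEC), 8.01 (mTEC) and 0.0853 RPKM (skinEC). The part of myeloid or keratinocyte RNA in the levels of Lgals3 was not tested.

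**Figure D2:**
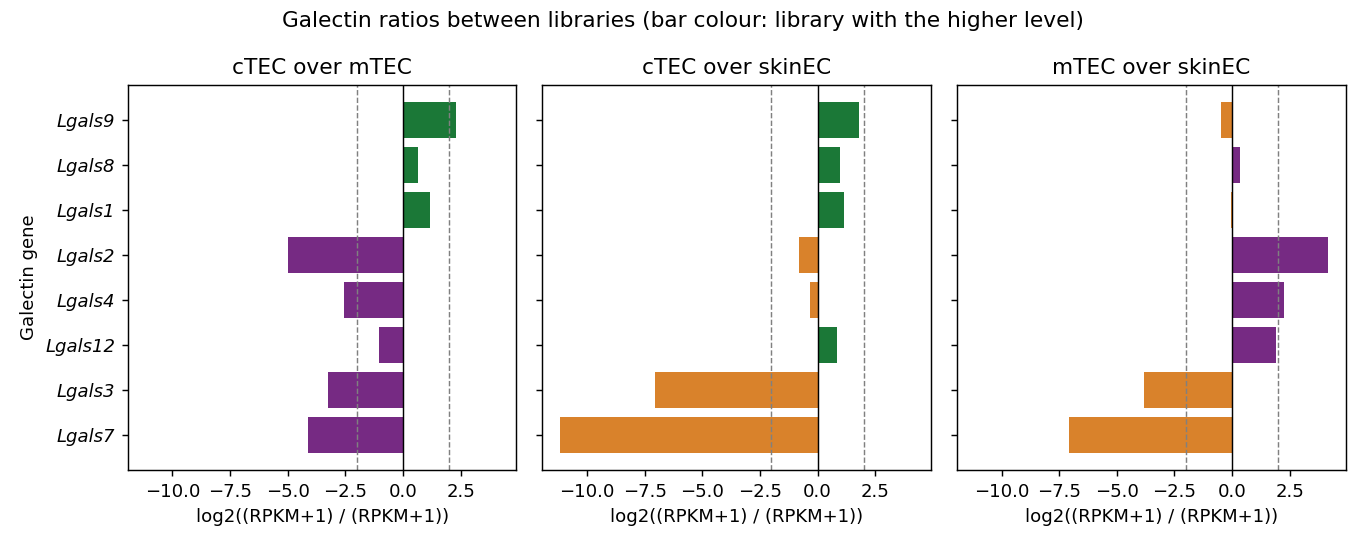
Log2 ratio of each galectin gene in the 3 comparisons of libraries, on the log2((RPKM + 1) / (RPKM + 1)) scale, with bars coloured by the library with the higher level and dashed lines at 4-fold. Bars of Lgals3 and Lgals7 pass the lines in all 3 panels, and those of Lgals1, Lgals8 and Lgals12 in none.

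Counted together, 1 of the 8 galectins, Lgals9, was at least 4-fold higher in cTEC than in mTEC, where 2.69% of all genes were, and 4 (Lgals2, Lgals3, Lgals4 and Lgals7) were at least 4-fold higher in mTEC, where 15.2% of all genes were. The median log2 ratio was -1.80 over the galectins and -0.08 over all genes. Between cTEC and skinEC, 0 galectins were at least 4-fold higher in cTEC (6.3% of all genes) and 2, Lgals3 and Lgals7, in skinEC (5.82% of all genes). Over all genes this was 1062 against 981, and 1642 against 959 on the TPM scale. The median log2 ratios were 0.27 (galectins) and 0 (all genes). Between mTEC and skinEC, 2 galectins, Lgals2 and Lgals4, were at least 4-fold higher in mTEC (16.8% of all genes) and 2, Lgals3 and Lgals7, in skinEC (4.2% of all genes), with median log2 ratios of 0.15 (galectins) and 0.16 (all genes). Each pair of comparisons shares a library, so the counts are not independent. These counts describe the libraries.

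The summed level of the family was 738 (cTEC), 334 (mTEC) and 6145 RPKM (skinEC). These sums were 0.159%, 0.0704% and 1.03% of all RPKM in each library. The skinEC sum was 8.33-fold that of cTEC and 18.4-fold that of mTEC, and it was carried by Lgals7. Without Lgals7 the sums were 736, 292 and 484 RPKM, and cTEC had the highest. In cTEC, Lgals9 made up 78.6% of the sum, in mTEC 35.1%, and in skinEC Lgals7 made up 92.1% and Lgals3 3.94%. By structure, the 4 tandem repeat genes held 86.6% of the sum in cTEC, 59.3% in mTEC and 3.22% in skinEC. Their summed level was close in mTEC (198 RPKM) and skinEC (198 RPKM) and higher in cTEC (639 RPKM). The 3 prototype genes held 13.3%, 35.8% and 92.8%.

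**Figure D3:**
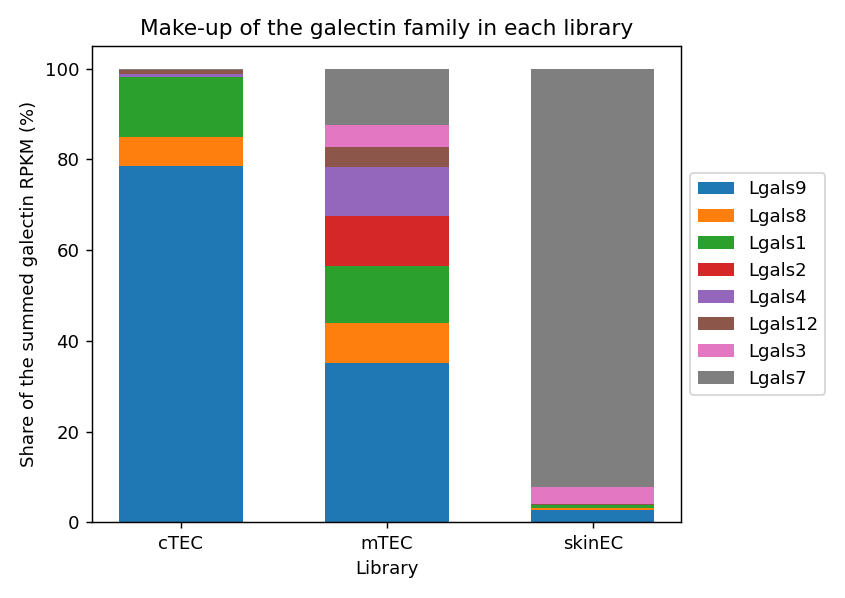
Share of each galectin gene in the summed galectin RPKM of its library, in percent, as stacked bars. The cTEC bar is mostly Lgals9 (78.6%), the skinEC bar mostly Lgals7 (92.1%), and the mTEC bar is spread over all 8 genes.

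Galectins on the same chromosome had their highest levels in different libraries. Lgals4 and Lgals7 are neighbours on chromosome 7 with 0 genes between them in the RefSeq table used, and Lgals4 was highest in mTEC and Lgals7 in skinEC. On chromosome 15, 6 genes lie between Lgals1 and Lgals2, of which Gga1, Sh3bp1 and Pdxp had values. Gga1, an adaptor gene of vesicle transport, was at 47.5 (cTEC), 48.7 (mTEC) and 64.7 RPKM (skinEC). Sh3bp1 was at 27.3, 47.8 and 78.0 RPKM and Pdxp at 1.66, 1.66 and 3.14 RPKM in the same order, against the 202-fold range of Lgals2.

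The genes most like each galectin were found by the Euclidean distance of log2(RPKM + 1) over the 3 libraries, a measure that 3 values make coarse. Lgals7 had no close neighbour. The nearest gene, the stefin gene Stfa3, lay 1.71 log2 units away, followed by the keratin genes Krt79 (1.71) and Krt1 (1.74). The nearest to Lgals3 were the homeobox gene Barx2 (0.70), the anchoring fibril collagen gene Col7a1 (0.87) and Plbd1 (0.95). For Lgals9 they were the lysosomal membrane genes Lamp2 (0.70, at 506, 123 and 103 RPKM in cTEC, mTEC and skinEC) and Laptm4a (0.70), and Maged1 (0.71). None of these 3 galectins had any gene within 0.5 log2 units.

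The other 5 had closer profiles. Lgals2 had 9 genes within 0.5 log2 units, among them the lipase gene Liph (0.31) and the ribonuclease gene Rnase1 (0.33). Lgals4 lay nearest to Inpp5b (0.21), its near copy Lgals6 (0.32) and Lpcat4 (0.41), and Lgals12 to Gcom1 (0.15), Pemt (0.17) and Ttll1 (0.24). Profiles like those of Lgals1 and Lgals8 were common, with 33 and 96 genes within 0.5. The nearest to Lgals1 were the hypoxia factor gene Hif1a (0.08), Pvrl1 (0.15) and H2-Ke6 (0.27), and to Lgals8 they were Klhdc2 (0.12), Sil1 (0.14) and Ptpn23 (0.15).

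Genes related to galectins by sequence or binding were read beside the family. Lgals3bp, which encodes a secreted glycoprotein that binds galectin-3, was at 203 (cTEC), 174 (mTEC) and 0.735 RPKM (skinEC). Its levels were thus high in both thymic libraries and low in skinEC, the reverse of the order of Lgals3 in cTEC and skinEC. Grifin, a lens protein gene of the galectin family, was at 9.90 RPKM in mTEC, 0.0664 RPKM in skinEC and listed at 0 in cTEC. 1110067D22Rik, now named Lgalsl, was at 21.1, 10.7 and 23.0 RPKM in cTEC, mTEC and skinEC.

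Glycoproteins that galectins are known to bind differed in both directions. Of 31 measured genes, 3 passed 4-fold toward cTEC (2.69% of all genes) and 7 toward mTEC (15.2% of all genes), and the median log2 ratio for cTEC over mTEC was -0.39 over the list and -0.08 over all genes. Toward cTEC these were the receptor genes Tgfbr2 (61.2 RPKM against 3.56 RPKM in mTEC) and Egfr (49.7 against 11.2 RPKM), and Lamp2. Toward mTEC the mucin gene Muc1 (0.988 RPKM in cTEC, 48.6 RPKM in mTEC) and Tnfrsf9, which encodes the T cell costimulator 4-1BB (0.761 and 34.8 RPKM), led. The other 5 were Cd40, the leukocyte genes Ptprc and Spn, Cd7, known from T cells, and Thy1, known from T cells and fibroblasts. The myeloid and fibroblast marker sums given above were also higher in mTEC, and the 10 thymocyte markers summed to 15.2 (cTEC), 33.0 (mTEC) and 4.73 RPKM (skinEC). Their part in these counts was not tested. Between mTEC and skinEC, 8 were higher in mTEC (16.8% of all genes), the 7 genes above and the mucin gene Muc4, with Cd40 furthest apart (134 RPKM against 0.0963 RPKM). In skinEC 4 were higher (4.2% of all genes), namely the adhesion gene Mcam (4.90 RPKM against 77.7 RPKM), Tgfbr2, Mertk and Cd44. Between cTEC and skinEC, 2 were higher in cTEC, Cd40 and Lamp2, where 6.3% of all genes were, and 2 in skinEC, Ncam1 and Mcam, where 5.82% of all genes were. Havcr2, which encodes the galectin-9 receptor TIM-3, was below the level of 1 RPKM in all 3 libraries, at 0.195 (cTEC), 0.450 (mTEC) and 0.0263 RPKM (skinEC). Alcam, which encodes an adhesion protein bound by galectin-8, was at 150.3, 55.1 and 43.9 RPKM.

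Galectins bind galactose at the ends of branched glycans and of lactosamine chains, which the enzymes of the next list build. Of these 21 genes, 2 passed 4-fold toward cTEC against mTEC (2.69% of all genes), the mannosidase genes Man2a1 (217 against 20.1 RPKM) and Man2a2 (53.3 against 11.7 RPKM), which trim glycans before branching. In mTEC 4 were higher, a share of the list near the 15.2% of all genes: Gcnt1 (14.4 RPKM against 0.395 RPKM in cTEC) and Gcnt2 (6.65 against 0.678 RPKM), which start branches, B3gnt2 (28.2 against 2.68 RPKM), which extends lactosamine chains, and the galactosyltransferase gene B4galt6 (9.73 against 0.408 RPKM). Mgat5, the branching enzyme gene most often tied to galectin binding, was at 3.79 (cTEC), 13.5 (mTEC) and 15.1 RPKM (skinEC), under 4-fold. The median log2 ratio was -0.70 over the list and -0.08 over all genes for cTEC over mTEC, and 0.96 and 0.16 for mTEC over skinEC. In this last comparison 4 were higher in mTEC (16.8% of all genes), namely Gcnt1, B3gnt3, B4galt6 and B4galt5 (18.7 against 0.196 RPKM), and 1, B4galt2 (1.51 against 9.15 RPKM), in skinEC (4.2% of all genes). Between cTEC and skinEC, 2 were higher in cTEC, Man2a1 and B4galt5 (6.3% of all genes), and 0 in skinEC (5.82% of all genes).

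Sialic acid on galactose can block some galectins. Of 7 sialyltransferase genes, 0 differed by 4-fold between cTEC and mTEC in either direction, where 2.69% of all genes were higher in cTEC and 15.2% in mTEC. Against skinEC, 1 was higher in cTEC, St3gal6 (6.3% of all genes), and 2 in mTEC, St3gal6 and St6gal2 (16.8% of all genes). St3gal6 was at 56.9 (cTEC), 25.8 (mTEC) and 2.56 RPKM (skinEC), which passed 4-fold for cTEC over skinEC (log2 ratio 4.02) and mTEC over skinEC (2.91). St6gal1, whose product caps lactosamine and blocks galectin-1, was at 0.836, 3.53 and 2.57 RPKM. Of 14 measured intracellular partners, 1 was at least 4-fold higher in mTEC than in cTEC, Calcoco2, the gene of an autophagy receptor bound by galectin-8 in human cells (3.04 RPKM in mTEC, and listed at 0 by the other two), where 15.2% of all genes were, and 11 were within 2-fold, as 58.3% of all genes were. Pdcd6ip, which encodes the vesicle protein ALIX bound by galectin-3, was at 57.0, 49.9 and 45.2 RPKM in cTEC, mTEC and skinEC.

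**Figure D4:**
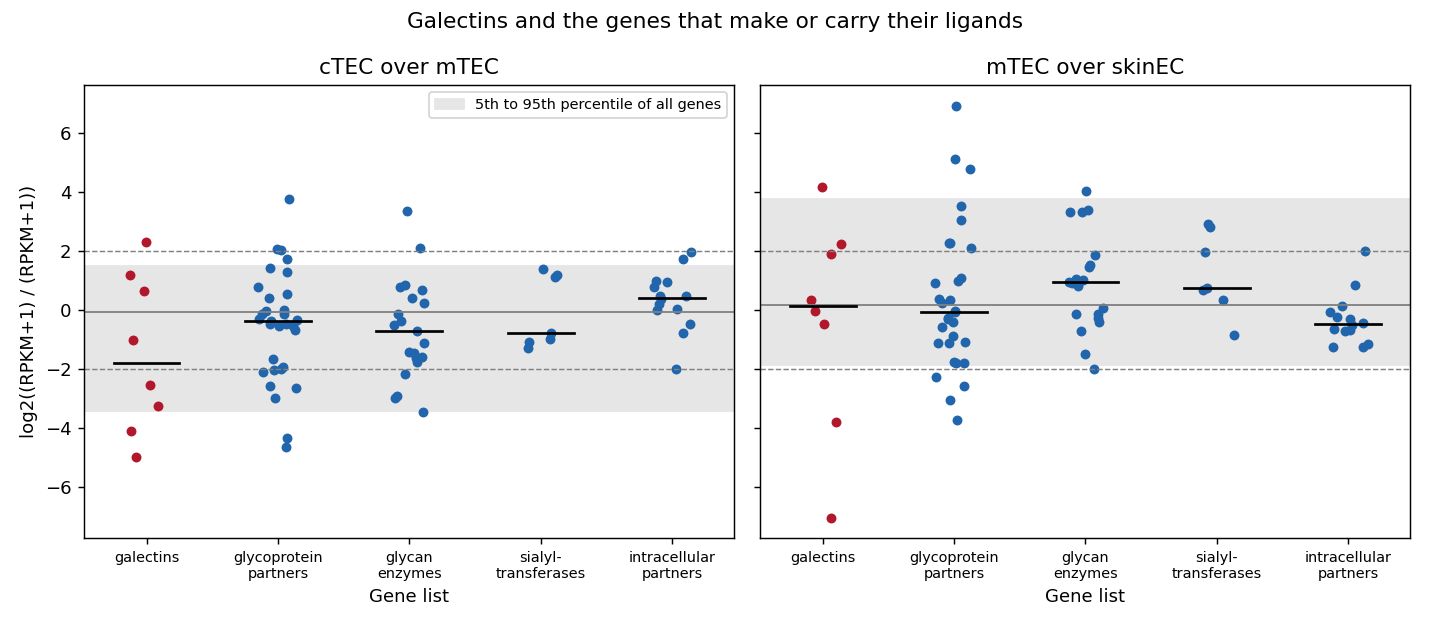
Log2 ratio, on the log2((RPKM + 1) / (RPKM + 1)) scale, of the galectins and 4 lists of genes that make, carry or meet their ligands, for cTEC over mTEC and mTEC over skinEC, 1 point per gene among the 16869 compared. Black bars are list medians, the grey line is the median and the grey band the 5th to 95th percentile of all genes, and dashed lines mark 4-fold. The galectin median lies at -1.80 for cTEC over mTEC and at 0.15 for mTEC over skinEC.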

How the data were processed

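Libraries were made from total RNA with an Illumina TruSeq kit, per the labels' protocols. Per the file headers, the values the authors deposited are RPKM of genes. CASAVA 1.8.2 and the build mm9 stand in the submitters' processing notes, without a role. For the aligner, the annotation and the strand setting, nothing was given in the sources used here, and overlapping genes and near copies such as Lgals4 and Lgals6 are uncertain. Other sheets of the workbook were not used.

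Of 22663 rows, those repeating a symbol (47 symbols) were reduced to the row of highest total. Ratios used a pseudocount of 1 RPKM, with Python 3.11.15 and pandas 2.3.3. Depth was the number of reads at which the largest share of low values of olfactory, vomeronasal, trace amine and taste receptor genes (coding lengths from GENCODE M21) were whole within 0.02 reads. The depth search and the ratio step were tested on simulated data. The simulated reads were whole for every gene, so that test does not bear on the low share of whole genes in skinEC. Each population had 1 library, so intervals and tests were not computed. Named were all 8 galectins, the 3 nearest genes of each by profile (provisional models and small RNAs left out, and 1 gene not reported here), and, on each list, the 2 most extreme ratios per direction for genes reaching 10 RPKM (not all printed), besides genes needed for small counts. Havcr2, Alcam, Mgat5, St6gal1, Pdcd6ip, Lor, Krt1, Cdx1, Reg3g, Lyz2, Laptm5 and Ptprc (beside Lgals3) were added after their values were seen. So were Adipoq, Cidea, Pparg, Elovl3, Cidec, Scd1, Scd3, Awat2, Cfd, Plin1 and Lep. The members and lists were chosen with earlier results of these data known. Alternatives were other pseudocounts, filters, scalings and fold rules, and, chosen after seeing the data, Lgals4 and Lgals6 summed.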

Additional observations from a re-analysis of the deposited data

How the results depend on the processing

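No paired analysis was possible because each population has 1 library, and none could be left out. Log2 ratios of single galectins were recomputed with other pseudocounts, scalings or with Lgals4 and Lgals6 summed. Of these 120, 111 kept their direction and their side of 4-fold. They include 24 from the summed rows, where only Lgals4 was changed. None of the 11 that passed 4-fold reversed, but this was fixed in advance. A pseudocount cannot change a direction, and the scaling factors differed too little between libraries to reverse a 4-fold ratio. The galectins at least 4-fold higher in mTEC than in skinEC numbered 1 with a pseudocount of 5 RPKM, since Lgals4 fell under the rule. Those higher in cTEC than in skinEC numbered 1 on the TPM scale (Lgals9) and 2 under a 2-fold rule, which also gave 2 higher in cTEC than in mTEC. The family sums were 1594, 704 and 10327 TPM in cTEC, mTEC and skinEC, a change of unit that kept their order, and 158, 217 and 484 RPKM without the most abundant member of each library, which put mTEC above cTEC. With median-ratio scaling the median log2 ratio of all genes moved from -0.08 to -0.32 for cTEC over mTEC and from 0.16 to 0.48 for mTEC over skinEC. On the TPM scale the medians were -0.14 and 0.58, and 0.17 for cTEC over skinEC. Over all genes, those at least 4-fold higher in mTEC than in cTEC numbered 2569, against 4554 with a pseudocount of 0.1 RPKM and 881 with 5 RPKM, and those higher in mTEC than in skinEC 2834, against 5030 and 1020. In the other directions, the counts were 454 (221 with 5 RPKM) for cTEC over mTEC, 1062 (1989 and 445) for cTEC over skinEC, 981 (1490 and 471) for skinEC over cTEC and 708 (373 with 5 RPKM) for skinEC over mTEC. On the TPM scale 1642 were higher in cTEC than in skinEC and 4321 in mTEC than in skinEC. Depth limits Lgals2 in cTEC, at about 6 reads.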
